A study of Sus scrofa with 6 samples.

Results

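Genes of fatty acid synthesis, activation and oxidation were compared between air–liquid interface (ALI) and submerged membrane culture (SMC) of IPEC-1 cells, a non-transformed epithelial line from the small intestine of newborn piglets. The members were taken by gene symbol in the platform annotation and not by their values: the families ACAD, ACOX, ACOT, ACSL, ACSM, ACSS, CPT1, CPT2, HADH, ELOVL, FADS, ACAA, ECI, ECH, PLIN and DGAT, and the genes FASN, SCD, ACACA, ACACB and ACLY. This rule was chosen with earlier results of these data known. Of 6765 genes with a probe set of their own, 51 fitted this rule, and they had 80 probe sets together. The pig RefSeq list (Sscrofa11.1) holds 72 symbols that fit the rule, and the other 21, among them ACLY, ACACB, ELOVL5, FADS3 and the ACSM family, have no probe set with their symbol among those used and were not analysed here.

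ALI cells were covered by a thin film of medium on the apical side, SMC cells by a column of medium, and both stood on porous supports in serum-free medium with insulin, transferrin, selenium and EGF. RNA of each culture type was hybridized to 3 GeneChip Porcine Genome Arrays, 1 each from passages P109, P111 and P113, so that the 3 arrays of a group are 3 passages of 1 cell line. The deposited log2 values had medians of 6.33 to 6.38 per array, and a probe set among the lowest 25% of an array (below 4.52 to 4.61) on all arrays of a group is called dim there, since it is not shown to lie above background. Where a gene had several probe sets, the one with the highest mean over all arrays stands for it, differences are ALI minus SMC on the log2 scale, and p-values from limma were adjusted over all 23999 probe sets. Signals of different probe sets are not compared with each other. The arrays hold RNA of whole cultures, so that fewer cells of a kind and less RNA per cell cannot be told apart.

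Fatty acids are built in the cytosol from acetyl-CoA. Before any further use they are bound to coenzyme A by acyl-CoA synthetases. As acyl-CoA they are lengthened by elongases and given double bonds by desaturases at the endoplasmic reticulum. Acyl-CoA is either stored in triglyceride droplets or carried into mitochondria by the carnitine shuttle, where dehydrogenases, hydratases, hydroxyacyl dehydrogenases and thiolases shorten it step by step. Very long and branched chains are shortened in peroxisomes, and enterocytes in the intestine rely on these routes to handle dietary fat.

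In ALI cells the desaturases SCD and FADS1 and the acetyl-CoA synthetase ACSS2 were lower by 2.18-fold, 2.14-fold and 2.11-fold, while CPT1A, which opens the carnitine shuttle, was 1.82-fold higher. These 4 were the members that passed limma's test at an adjusted p under 0.05, 1 of 51 higher and 3 of 51 lower, where 1.02% of all named genes were called higher and 1.51% lower. With the passage as a block, the desaturase FADS2 joined the lower genes and the acyl-CoA synthetase ACSL1 the higher ones, which gave 2 higher and 4 lower members (2.25% and 3.75% of all named genes in this fit). At an unadjusted p under 0.05, limma gave 8 higher and 6 lower members (7.10% and 8.91% of all named genes). The other 45 members stayed below a 1.5-fold difference. The median log2 fold change was 0.04 over the members and 0.01 over all named genes, and 29 members lay above 0 and 22 below. Among all 6765 named genes, 3522 lay above 0 and 3243 below. The ALI and SMC arrays did not overlap for 17 members, 9 higher and 8 lower, which is 17.6% and 15.7% of the members beside 11.0% and 10.9% of all named genes.

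**Figure D1:**
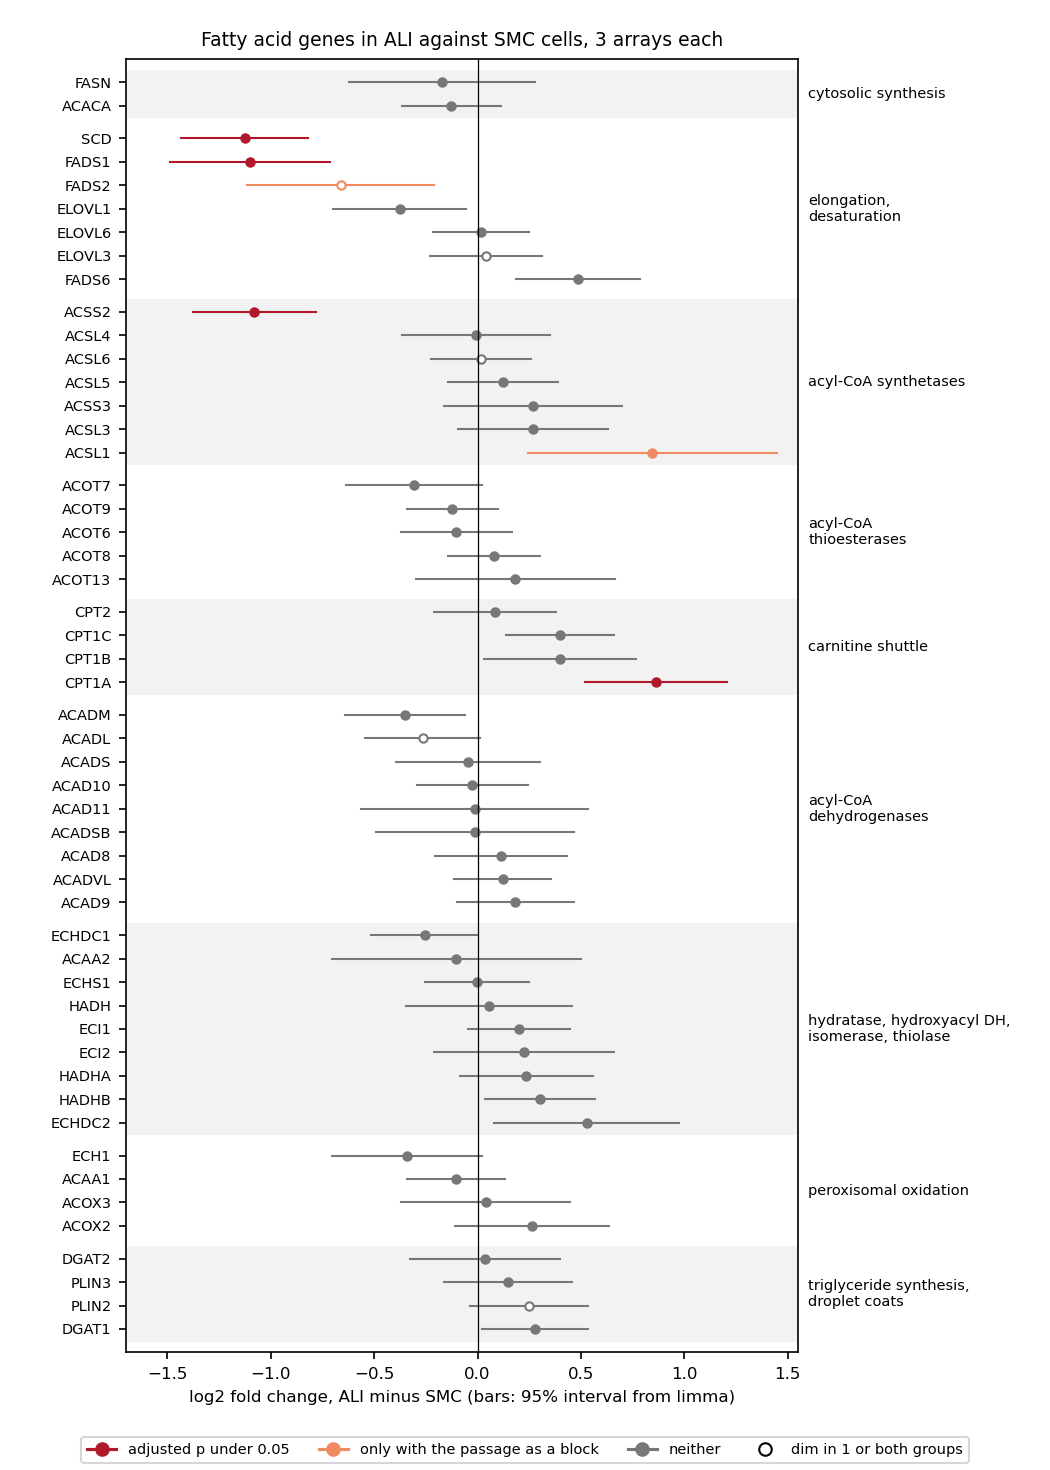
Log2 fold change (ALI minus SMC) of the 51 members by role in the pathway, with 95% intervals from limma over 3 ALI and 3 SMC arrays. SCD, FADS1 and ACSS2 lie near -1.1, CPT1A and ACSL1 near 0.85, and the other members between -0.66 (FADS2) and 0.53 (ECHDC2); open points are dim in 1 or both groups.

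The enzymes of the cytosolic synthesis step itself did not pass the test. FASN, the fatty acid synthase that makes palmitate, had log2 values of 9.705, 9.178 and 9.834 in ALI cells (passages P109, P111 and P113, the order used throughout) and of 10.004, 9.727 and 9.499 in SMC cells. Its groups overlapped, and the ALI array was below the SMC array at passages P109 and P111 but above it at passage P113. The log2 fold change was -0.17 (95% interval -0.62 to 0.28, adjusted p = 0.751). ACACA, the acetyl-CoA carboxylase that supplies malonyl-CoA, had values of 4.74, 4.77 and 4.80 in ALI cells and of 5.04, 4.80 and 4.85 in SMC cells. The groups were separate by a narrow gap, with a log2 fold change of -0.13 (95% interval -0.37 to 0.11, adjusted p = 0.644).

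SCD, the stearoyl-CoA desaturase that makes monounsaturated fatty acids, was lower in ALI cells at each passage. Its log2 values were 12.09, 11.78 and 11.75 in ALI cells, against 13.15, 13.00 and 12.84 in SMC cells. The lowest SMC array stood 0.752 log2 units above the highest ALI array, and both groups were highest at passage P109. The difference was -1.12 ± 0.13 on the log2 scale (standard error), with an adjusted p of 0.00785 in limma. SCD is measured by 1 probe set.

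FADS1, the delta-5 desaturase of polyunsaturated fatty acids, had log2 values of 6.37, 5.79 and 6.37 in ALI cells, against 7.41, 7.22 and 7.20 in SMC cells. All ALI arrays lay below all SMC arrays, and the passage P111 array was the lowest of the ALI group. Its log2 fold change was -1.10 ± 0.17 (standard error), with an adjusted p of 0.0203 in limma. FADS2, the delta-6 desaturase, is the neighbour of FADS1 in the pig genome, with 0 protein-coding genes between them in RefSeq. Its values were 4.41, 4.32 and 4.04 in ALI cells, all dim, against 5.32, 4.88 and 4.55 in SMC cells. ALI lay below SMC without overlap and within each passage, but the fold change of a dim probe set is no exact size. Its log2 fold change of -0.66 had an adjusted p of 0.165, and 0.0185 with the passage as a block. The second FADS2 probe set, dim in both groups, gave 0.06.

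The remaining desaturase and the elongases held no called member. FADS6, named for its similarity to the desaturases, had the opposite sign, with values of 7.44, 7.41 and 7.07 in ALI cells, against 6.94, 6.74 and 6.79 in SMC cells. All ALI arrays lay above all SMC arrays, and the log2 fold change was 0.48 (adjusted p = 0.127, and 0.0531 with the block), with 0.38 and 0.47 from its other probe sets. ELOVL1, an elongase of very long saturated chains, had -0.38 (adjusted p = 0.268) and was lower in ALI cells at each passage. ELOVL6, which lengthens palmitate, had 0.02 (95% interval -0.22 to 0.25), and the dim ELOVL3 had 0.04. Of the 7 elongases and desaturases, 0 were thus called higher and 2 lower by limma (1 and 4 at an unadjusted p under 0.05, 1 and 2 at an unadjusted p of 0.05 or less by the methods' t-test). In the same order, all named genes gave 1.02% and 1.51%, 7.10% and 8.91%, and 7.10% and 7.07%.

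Of the 7 acyl-CoA synthetases, limma called 0 higher and 1 lower (1 and 1 at an unadjusted p under 0.05, 0 and 1 at an unadjusted p of 0.05 or less by the methods' t-test). The shares of all named genes, in this order, were 1.02% and 1.51%, 7.10% and 8.91%, and 7.10% and 7.07%. ACSS2, which makes acetyl-CoA from acetate in the cytosol and nucleus, had log2 values of 7.29, 7.22 and 7.40 in ALI cells, against 8.44, 8.56 and 8.15 in SMC cells. No ALI array reached the lowest SMC array, and the log2 fold change was -1.08 ± 0.13 (standard error), with an adjusted p of 0.00802. Its second probe set gave -1.01 (adjusted p = 0.0259), which made ACSS2 the only member with more than 1 called probe set in this fit. The difference was smallest at passage P113 (-0.75) and larger at passages P109 (-1.15) and P111 (-1.34).

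ACSL1, a long-chain acyl-CoA synthetase of mitochondria and endoplasmic reticulum, had log2 values of 10.55, 9.87 and 11.02 in ALI cells, against 9.67, 9.43 and 9.81 in SMC cells. Again the groups did not overlap, the passage P111 array was the lowest of each group, and the ALI arrays spread over more than 1 log2 unit (SD 0.581 in ALI and 0.190 in SMC cells). The log2 fold change of 0.84 did not pass the test without the block (adjusted p = 0.182), but did with it (adjusted p = 0.0181), where its standard error was 0.15 beside 0.26. When 1 array was left out without the block, ACSL1 was called only without ALI replicate 2, the passage P111 array (adjusted p = 0.0334 in limma). That passage had the smallest difference (0.44). Without any other array the adjusted p was 0.218 to 0.495. The other long-chain synthetases had log2 fold changes of 0.27 for ACSL3, 0.12 for ACSL5, 0.02 for the dim ACSL6 and -0.01 for ACSL4, and the mitochondrial ACSS3 had 0.27 (adjusted p from 0.49 to 0.99 for these 5).

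**Figure D2:**
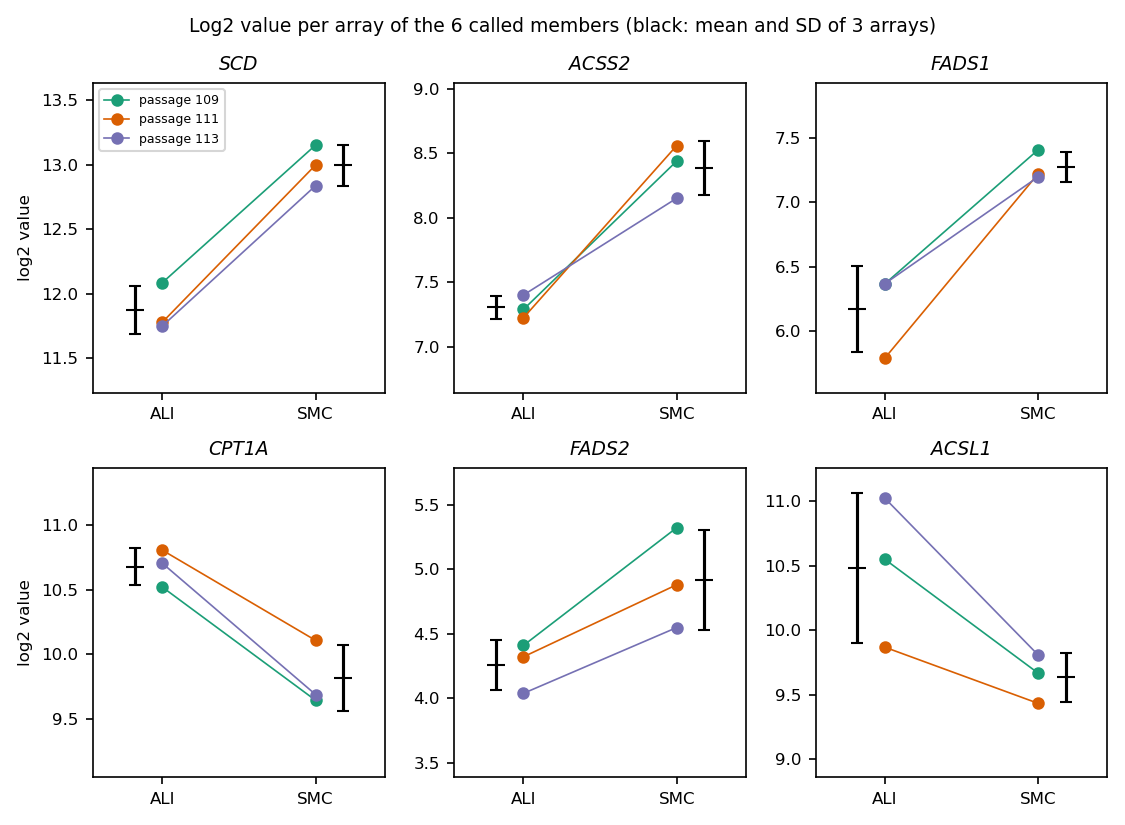
Log2 value of SCD, ACSS2, FADS1, CPT1A, FADS2 and ACSL1 on each array in ALI (left) and SMC cells (right), with lines joining arrays of the same passage and black bars for the mean ± SD of 3 arrays; all panels span the same number of log2 units. In each panel the 3 lines run the same way and the groups do not overlap, with SCD at 11.87 ± 0.186 in ALI and 13.00 ± 0.157 in SMC cells.

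The acyl-CoA thioesterases, which release the free acid from coenzyme A, showed small differences in either direction. ACOT7, a cytosolic thioesterase, had values of 7.68, 7.56 and 7.86 in ALI cells and of 8.25, 7.80 and 7.96 in SMC cells. Each passage was lower in ALI cells but the groups overlapped (log2 fold change -0.31, 95% interval -0.64 to 0.02). ACOT13, a mitochondria-associated thioesterase, had values of 9.13, 8.81 and 9.51 in ALI cells and of 8.79, 8.78 and 9.32 in SMC cells, with overlapping groups and a log2 fold change of 0.18 (95% interval -0.30 to 0.66). ACOT6, ACOT8 and ACOT9 had -0.10, 0.08 and -0.12. The second ACOT6 probe set gave -0.41 (unadjusted p = 0.0287 in limma, adjusted p = 0.274, and 0.0657 with the block). The second ACOT13 probe set gave -0.01. By the probe set used for each gene, none of the 5 was called by limma (0 at an unadjusted p under 0.05 as well, and 0 by the methods' t-test).

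All 4 measured members of the carnitine shuttle had a positive log2 fold change, where 3522 of all 6765 named genes had one. Of the 4, 1 was called, beside 1.02% of all named genes called higher. CPT1A, the widely expressed carnitine palmitoyltransferase of the outer mitochondrial membrane and the entry point of long chains, had log2 values of 10.52, 10.81 and 10.71 in ALI cells, against 9.64, 10.11 and 9.69 in SMC cells. The lowest ALI array stood 0.413 log2 units above the highest SMC array, and the difference was 0.88, 0.70 and 1.02 at passages P109, P111 and P113. Its log2 fold change of 0.87 ± 0.15 (standard error) had an adjusted p of 0.0301 in limma. CPT1B, known as the muscle form, had values of 6.10, 5.94 and 6.24 in ALI cells and of 5.70, 5.40 and 5.97 in SMC cells. Its groups overlapped, although ALI was above SMC within each passage (log2 fold change 0.40, adjusted p = 0.304, and 0.0806 with the block). CPT1C, known as the brain form, had 0.40 (adjusted p = 0.15, and 0.0824 with the block), with separate groups. Its other probe sets gave -0.06 and 0.18, the second of them dim in both groups, and the mean over its probe sets was 0.17. CPT2, the transferase of the inner membrane, had 0.08 (95% interval -0.21 to 0.38).

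The acyl-CoA dehydrogenases, a family that includes the enzymes of the first step of each round of mitochondrial oxidation, held no called member (0 of 9 by limma). At an unadjusted p under 0.05 in limma 1 was lower, beside 8.91% of all named genes. The methods' t-test gave 0 at an unadjusted p of 0.05 or less. ACADM, the medium-chain enzyme, had the lowest log2 fold change of these 9 dehydrogenases. Its values were 9.10, 9.05 and 9.09 in ALI cells and 9.24, 9.38 and 9.67 in SMC cells. All ALI arrays lay below all SMC arrays, and the log2 fold change was -0.35 (95% interval -0.64 to -0.06, adjusted p = 0.255). ACADVL, the very-long-chain enzyme, had values of 8.26, 8.30 and 8.46 in ALI cells and of 8.26, 8.18 and 8.22 in SMC cells. These groups were separate by 0.00393 log2 units only, at a log2 fold change of 0.12, and the second ACADVL probe set gave -0.26. The long-chain enzyme ACADL was dim in both groups, with values of 3.004, 3.264 and 2.982 in ALI cells and of 3.231, 3.472 and 3.340 in SMC cells. Its groups overlapped at a log2 fold change of -0.26. By the probe set used for each gene, the log2 fold changes of ACADS, ACADSB, ACAD8, ACAD9, ACAD10 and ACAD11 lay between -0.05 and 0.18. The second ACADSB probe set gave -0.32 (adjusted p = 0.354 in limma), with ALI below SMC within each passage, and the second ACAD8 probe set gave -0.14.

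The list of later steps of mitochondrial oxidation, which also holds the cytosolic ECHDC1, had 0 called members of 9 by limma. At an unadjusted p under 0.05 in limma 2 were higher, and 1 at 0.05 or less by the methods' t-test (each beside 7.10% of all named genes). A positive log2 fold change was found in 6 of the 9, where 3522 of all 6765 named genes had one. HADHB, the thiolase subunit of the trifunctional protein, had log2 values of 10.83, 10.96 and 10.65 in ALI cells and of 10.52, 10.42 and 10.59 in SMC cells. Its groups were separate at 0.30 (adjusted p = 0.285). Its other probe sets gave 0.10 and 0.44, and the probe set at 0.44 was called with the passage as a block (adjusted p = 0.0489). HADHA, the other subunit and the genomic neighbour of HADHB, had values of 9.84, 9.88 and 10.26 in ALI cells and of 9.71, 9.67 and 9.90 in SMC cells. Its groups overlapped, and ALI was above SMC within each passage (0.24, adjusted p = 0.5).

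ECHDC2, a mitochondrial protein with an enoyl-CoA hydratase domain, had values of 9.63, 9.74 and 9.88 in ALI cells and of 8.75, 9.39 and 9.52 in SMC cells. The groups were separate, with SMC replicate 1 well below the other SMC arrays, and the log2 fold change was 0.53 (adjusted p = 0.262, and 0.0639 with the block). ECHDC1, a cytosolic enzyme that removes ethylmalonyl-CoA, had -0.26 with separate groups. The enoyl-CoA isomerases ECI1 and ECI2 had 0.20 and 0.23, the hydroxyacyl-CoA dehydrogenase HADH had 0.05, the short-chain hydratase ECHS1 had -0.00 and the thiolase ACAA2 had -0.10.

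Peroxisomal oxidation and triglyceride storage held no called member either. ECH1, a dienoyl-CoA isomerase of peroxisomes and mitochondria, had values of 7.83, 7.61 and 8.07 in ALI cells and of 7.93, 8.25 and 8.36 in SMC cells, with overlapping groups at -0.34 (95% interval -0.70 to 0.02). ACOX2, an oxidase of branched chains, had values of 9.20, 9.34 and 9.58 in ALI cells and of 8.82, 9.15 and 9.36 in SMC cells, with overlapping groups at 0.26 (95% interval -0.11 to 0.64). ACOX3, another branched-chain oxidase, had 0.04, and the peroxisomal thiolase ACAA1 had -0.10. At an unadjusted p under 0.05, 0 of these 4 passed in limma and 0 in the methods' t-test.

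DGAT1, which makes triglyceride in the last step of its synthesis, had values of 7.84, 7.89 and 7.83 in ALI cells and of 7.75, 7.52 and 7.45 in SMC cells. Each ALI array lay above each SMC array, and the log2 fold change was 0.28 (95% interval 0.02 to 0.54, adjusted p = 0.309). The second DGAT1 probe set gave 0.06, with overlapping groups. PLIN2, a coat protein of lipid droplets, was dim on each array, with values of 4.57, 4.49 and 4.32 in ALI cells and of 4.23, 4.04 and 4.37 in SMC cells, so that its 0.25 is no exact size. The second acyltransferase DGAT2 had 0.04 and the droplet protein PLIN3 had 0.15. Of these 4 genes, limma gave 1 higher and the methods' t-test 1 higher at an unadjusted p under 0.05, and neither called any after adjustment. Each test gave 7.10% of all named genes as higher before adjustment.

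Of the 51 members, 20 were measured by more than 1 probe set. In 11 of them the probe sets had the same sign, and in 9 they did not, among them FASN, ELOVL6, ACADVL, ACSL5, CPT1C and FADS2. SCD, FADS1, CPT1A and ACSL1 had 1 probe set each, so that no second measurement on these arrays bears on them.

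**Figure D3:**
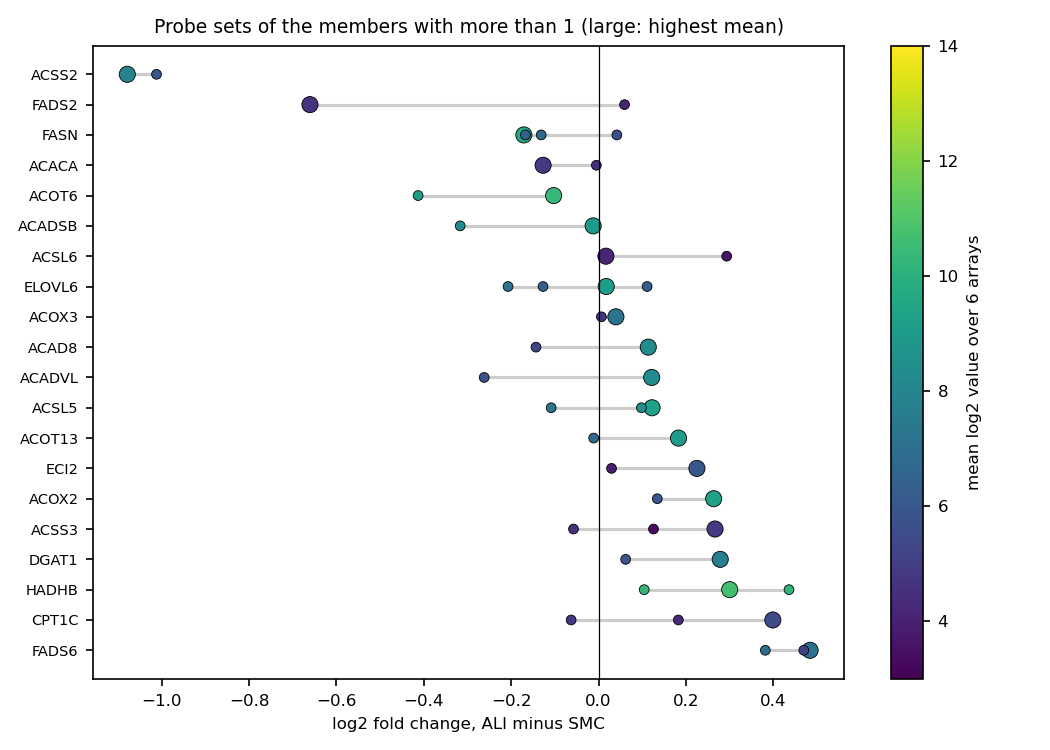
Log2 fold change (ALI minus SMC) of each probe set of the 20 members with more than 1, coloured by the mean log2 value over the 6 arrays, with the probe set used for the gene drawn larger. Both ACSS2 probe sets lie near -1 and the 3 FADS6 probe sets between 0.38 and 0.48, while FADS2 spans -0.66 to 0.06.

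The passage with the highest array was the same in both culture types for 25 members (49% of them, beside 46.4% of all named genes). For 17 of the 51 members, the passage P113 array was the highest in ALI and in SMC cells alike (33.3%, beside 22% of all named genes), and 5 and 3 members were highest at passages P109 and P111 in both (9.8% and 5.88%, beside 13.1% and 11.2% of all named genes). The 17 were mostly enzymes of oxidation, namely ACAA1, ACAA2, ACAD8, ACAD11, ACADS, ACADSB, ACOX2, ACOX3, ECH1, ECHDC2, ECI1, HADH and HADHA, with ACOT13, ACSL1, CPT1B and PLIN3, and SCD and FADS2 were among the 5 that were highest at passage P109. ACAA2 gives an example, with 6.52, 6.06 and 7.09 in ALI cells and 6.39, 6.57 and 7.03 in SMC cells. Each passage is 1 array per culture type, so that this is a description. ALI was above SMC at all 3 passages for 17 members and below it for 13, against 23.2% and 21.0% of all named genes.

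Around the members, 114 measured genes of the same pathways were looked at, of which limma called 1 higher and 2 lower (0.877% and 1.75%, beside 1.02% and 1.51% of all named genes). With the passage as a block it called 4 higher and 7 lower, beside 2.25% and 3.75% of all named genes. Among the genes that feed synthesis, the mitochondrial citrate carrier SLC25A1 was lower in ALI cells, with 9.06, 8.92 and 9.14 against 9.77, 9.56 and 9.59 in SMC cells. The groups were separate at a log2 fold change of -0.60 (adjusted p = 0.037). ME1, the malic enzyme that supplies NADPH, had 8.58, 8.69 and 9.22 in ALI cells against 9.25, 9.61 and 9.72 in SMC cells. ALI and SMC arrays did not overlap (log2 fold change -0.70, adjusted p = 0.134, and 0.0141 with the block). INSIG1, which holds back the activation of the sterol and fatty acid regulators of the SREBP family, had 9.59, 8.51 and 8.71 in ALI cells against 10.33, 9.53 and 9.47 in SMC cells. These groups overlapped because both culture types were highest at passage P109, and within each passage ALI was lower (log2 fold change -0.84, adjusted p = 0.272, and 0.00519 with the block). Of 23 regulators, INSIG1 was the 1 called with the block, and limma called 0 without it (1 higher and 3 lower at an unadjusted p under 0.05, 1 and 2 at an unadjusted p of 0.05 or less by the methods' t-test). For these unadjusted counts, all named genes gave 7.10% and 8.91%, and 7.10% and 7.07%.

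In triglyceride and lipolysis genes, CIDEB, a protein of lipid droplets and lipoprotein assembly, was lower in ALI cells, with 6.75, 6.79 and 6.74 against 7.97, 7.81 and 7.59 in SMC cells. The ALI arrays lay within 0.1 log2 units of each other, far below the SMC arrays, at a log2 fold change of -1.03 (adjusted p = 0.00744). LIPA, a lipase of lysosomes, was higher, with 9.96, 9.65 and 9.87 in ALI cells against 9.04, 9.19 and 9.32 in SMC cells. Its log2 fold change was 0.64, with an adjusted p of 0.0449 and no overlap of the groups. The lipase cofactor ABHD5 had 7.17, 7.33 and 6.82 in ALI cells against 7.69, 7.82 and 7.49 in SMC cells. The phosphatidate phosphatase LPIN2 had 7.23, 7.47 and 7.07 in ALI cells against 8.25, 7.73 and 7.71 in SMC cells. Both were lower without overlap, at -0.56 and -0.64, and were called only with the block (adjusted p = 0.0219 and 0.0473, against 0.135 and 0.126 without it). Of 26 genes in this list, 1 was higher and 1 was lower without the block, beside 1.02% and 1.51% of all named genes.

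Among 25 further enzymes of oxidation, 17 had a positive log2 fold change, where 3522 of all 6765 named genes had one. The list's median was 0.13, beside 0.01 over all named genes. None was called by limma, and 2 were higher with the block (2.25% of all named genes). At an unadjusted p under 0.05, limma gave 6 higher and 0 lower, beside 7.10% and 8.91% of all named genes. The methods' t-test gave 3 and 0 at an unadjusted p of 0.05 or less, beside 7.10% and 7.07%. The peroxisomal catalase CAT had 0.68 (adjusted p = 0.22, and 0.0229 with the block), with 12.33, 11.84 and 12.75 in ALI cells and 11.47, 11.48 and 11.92 in SMC cells. The groups overlapped only through ALI replicate 2, and ALI was above SMC within each passage. AMACR, the racemase for branched chains, was dim in both groups, with 3.96, 3.91 and 4.34 in ALI cells and 3.56, 3.52 and 3.52 in SMC cells, so that its 0.53 is no exact size (adjusted p = 0.1, and 0.0477 with the block). SLC25A20, the carrier that works between CPT1 and CPT2, had 0.39 (adjusted p = 0.235).

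Among 21 genes of uptake, binding and export, the peroxisome-linked lipid carrier SCP2 had 12.80, 12.69 and 12.81 in ALI cells against 11.98, 12.10 and 12.52 in SMC cells. The groups did not overlap (log2 fold change 0.57, adjusted p = 0.116, with the block 0.043). The fatty acid binding protein FABP3 had 8.99, 9.46 and 8.18 in ALI cells against 10.40, 9.70 and 9.75 in SMC cells. Its groups did not overlap either, and the difference was smallest at passage P111 (log2 fold change -1.07, adjusted p = 0.162, and 0.038 with the block). Without the block limma called none, 0 of 21 (1 higher and 2 lower at an unadjusted p under 0.05, 3 and 2 at an unadjusted p of 0.05 or less by the methods' t-test). Unadjusted shares of all named genes were 7.10% and 8.91% in limma, and 7.10% and 7.07% in the methods' t-test. Of 7 target genes of the PPAR and xenobiotic receptors outside the pathway, 0 were called in limma, with or without the block (0 at an unadjusted p under 0.05, and 0 by the methods' t-test). CYP1A1, a xenobiotic-metabolizing enzyme, was the farthest from 0 at 0.92 (adjusted p = 0.48), with 7.49, 9.24 and 6.84 in ALI cells and 6.84, 6.61 and 7.35 in SMC cells. ALI replicate 2 stood far above the other arrays, the groups overlapped, and the log2 fold change was 0.23 without that array.

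**Figure D4:**
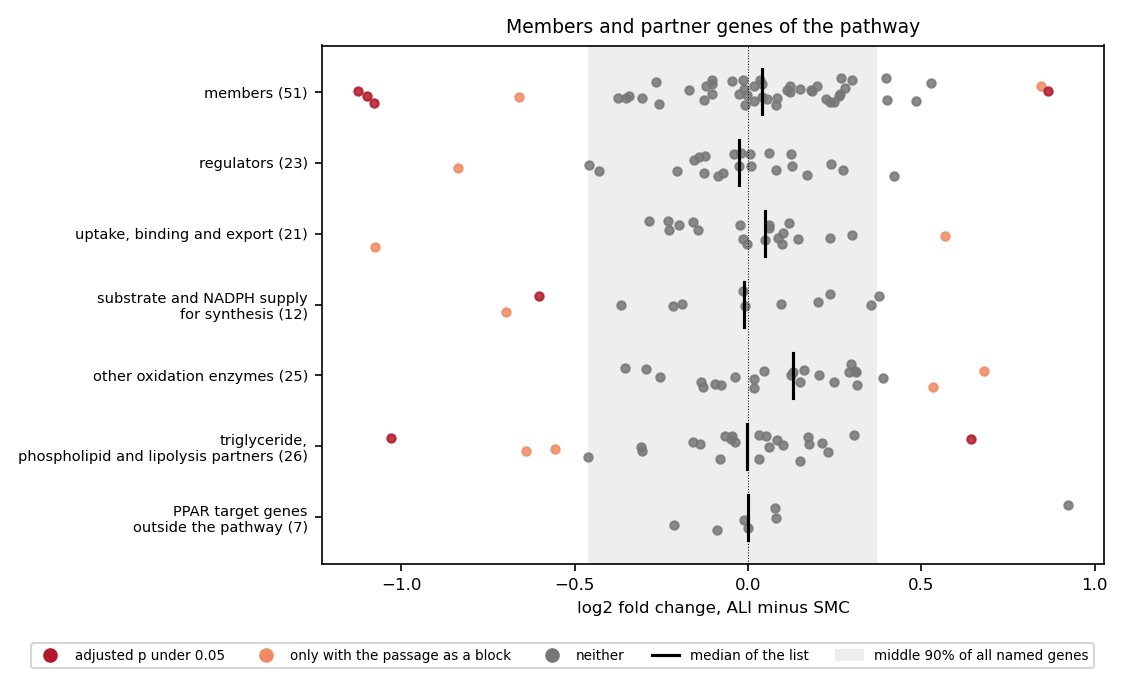
Log2 fold change (ALI minus SMC) of the 51 members and of the genes in 6 partner lists, with the median of each list as a black line and the middle 90% of all named genes shaded. The medians lie between -0.03 (regulators) and 0.13 (other oxidation enzymes), and the called genes are few in each list.

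The labels name jejunal enterocytes, while their free-text description speaks of liver. The epithelial markers EPCAM and KRT8 had means of 13.39 and 13.66 in ALI cells and of 13.32 and 13.54 in SMC cells. Of 12 enterocyte markers, 3 were dim in both groups (FABP1, FABP2 and CDH17) and 5 in at least 1 group. Among those not dim were APOA1 (means of 8.52 in ALI and 8.67 in SMC cells), SLC5A1 (6.33 and 6.88) and VIL1 (6.12 and 6.56). The mean log2 value over the 12 was 5.18 to 5.33 on ALI arrays and 5.43 to 5.51 on SMC arrays, without overlap. Of these 12, limma called 1, TFF3, which is known as a goblet cell product and was lower in ALI cells. Without TFF3, an alternative chosen after seeing the data, the mean over the other 11 was 5.02 to 5.21 on ALI arrays and 5.17 to 5.32 on SMC arrays. The groups overlapped, although ALI was below SMC within each passage (5.17, 5.21 and 5.02 against 5.29, 5.32 and 5.17). The glucose carrier SLC5A1 and the brush border protein VIL1 had -0.54 and -0.45 with separate groups and were not called (adjusted p = 0.22 and 0.332). The mean over 8 adipocyte markers was 5.75 to 5.84 on ALI arrays and 5.81 to 5.86 on SMC arrays. Of the 8, ADIPOQ and FABP4 were dim and the others were not, with CFD at a mean of 7.83 in ALI and 8.07 in SMC cells. The mean over 12 hepatocyte markers was 4.89 to 5.14 in ALI and 4.93 to 5.19 in SMC, with 4 dim in both groups, and ALB averaged 8.28 in ALI and 8.58 in SMC cells. Over 11 markers of fibroblasts and smooth muscle the mean was 5.66 to 5.80 in ALI and 5.67 to 5.80 in SMC. Of these, 4 were dim in both groups, and TAGLN averaged 10.12 in ALI and 10.17 in SMC cells. Over 7 endothelial markers the mean was 4.60 to 4.99 in ALI and 4.73 to 4.92 in SMC (PECAM1 was called, lower in ALI cells). Over 6 immune markers the mean was 4.47 to 4.52 in ALI and 4.35 to 4.49 in SMC, with 2 dim in both groups, PTPRC and CD8A. The part of these markers in the results above was not tested.

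Leaving out 1 array, which also leaves fewer samples to test, changed some calls. The log2 fold changes of the members and partner genes called without the block kept their direction. Some uncalled members changed sign, such as ACAA2 (-0.37 to 0.14). When each of the 6 arrays was left out in turn, SCD, ACSS2 and CIDEB stayed called each time (adjusted p up to 0.0489, 0.0490 and 0.0464). For FADS1 the call needed ALI replicate 1 (adjusted p = 0.0611 without it) and both SMC replicate 1 (0.0656) and SMC replicate 2 (0.0993), while its log2 fold change lay between -1.19 and -0.91. CPT1A was lost without any 1 array other than SMC replicate 2 (adjusted p 0.0602 to 0.0936), with a log2 fold change between 0.78 and 1.01. The call was lost for SLC25A1 without any 1 other than ALI replicate 3 (0.0755 to 0.131), and for LIPA without any 1 of the 6 (0.0511 to 0.178), with log2 fold changes between -0.65 and -0.54 for SLC25A1 and between 0.57 and 0.73 for LIPA. ME1 became called without ALI replicate 3 (0.042) and SCP2 without SMC replicate 3 (0.0385). The methods' t-test called 0 members after Benjamini-Hochberg adjustment, and also 0 of all 6765 named genes. At an unadjusted p of 0.05 or less it gave 5 higher and 3 lower members, against 7.10% and 7.07% of all named genes.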

How the data were processed

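The authors hybridized RNA to Affymetrix GeneChip Porcine Genome Arrays, processed them with GCOS (version 1.1.1 in the submitters' processing notes, while the methods name another version) and normalized by GC-RMA according to the methods. The deposited log2 values of 24123 probe sets name no normalization and came without detection calls, and they were not scaled again. Background correction, scan and slide could not be varied.

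After 124 control probe sets were left out, limma 3.58.1 in R 4.3.3 (lmFit, then eBayes) was run on the other 23999 with culture type as the only factor, Benjamini-Hochberg adjustment and a threshold of 0.05. Intervals are 95% intervals of single genes. The methods' t-test, the passage as a block, other scalings, filters on dim probe sets, an intensity trend, probe set means and leaving out single arrays were alternatives, and the code was tested on simulated data. By the labels, an ALI and an SMC array share each passage, and their deviations correlated at 0.34, 0.14 and 0.451 across probe sets for passages P109, P111 and P113, and unmatched pairs at -0.424 to 0.219. The labels pair the arrays by passage, although the matched P111 pair (0.14) correlated less than the ALI P111 and SMC P109 pair (0.219). The calls come from the fit without the passage, and those with the passage as a block are given beside them where they differ. Arrays have no depth, and 3 per group limit the precision. Without the block, a limma p-value weighs the culture difference against the spread between passages within each culture type. With the block, that difference is weighed against its own spread across passages. In both fits limma moderates the spread over all probe sets.

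Members and lists were chosen with earlier results of these data known. Array values are given for called members, for key enzymes and for the 2 members farthest from 0 in each role group, and of the partner lists for called genes and the 1 farthest from 0. Symbols came from the platform annotation: 10069 probe sets had 1, 198 had several and 13732 had none, and only the first were named. All 51 members carry the same symbol in RefSeq. Promoter sequences were not used here.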

Additional observations from a re-analysis of the deposited data

How the results depend on the processing

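Quantile normalization, centring on array medians, an intensity trend, filters at a mean above 4 and 6 and averaging the probe sets of a gene left the counts at 1 higher and 3 lower members and at 1 higher and 2 lower partner genes. With the passage as a replicate block, 2 members were higher and 4 lower, and 4 partner genes were higher and 7 lower. The block changed no other call among the members. The methods' t-test called 0 in each of these 4 counts after adjustment, and 0 of all named genes as well. At an unadjusted p of at most 0.05 it gave 5 and 3 members and 10 and 10 partner genes, beside 7.10% and 7.07% of all named genes. Without 1 array, higher members numbered 0 to 1 and lower members 2 to 3, higher partner genes 0 to 1 and lower ones 1 to 3, and the members' median log2 fold change was 0.01999 to 0.1281, its highest value being that without ALI replicate 2. FASN ranged from -0.302 to 0.026 without 1 array, with a positive sign without ALI replicate 2, and ACADVL turned to -0.0701 with the mean over its probe sets, as did the uncalled ACAD8 (-0.0147) and ELOVL6 (-0.0514), while FADS2 came to -0.30. The cause was not tested. Signals near background limit what can be said of ACADL, ACSL6, ELOVL3, PLIN2 and FADS2.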
